A study of Mus musculus with 32 samples.

Results

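The BCL2 family was followed through 10 genes that control the mitochondrial route to apoptosis, chosen by symbol: the pro-survival members Bcl2, Bcl2l1 and Mcl1, the effectors Bax and Bak1, and the BH3-only members Bid, Bad, Bcl2l11, Bbc3 and Pmaip1. All 10 were among the 12451 genes of the count table, and 9 of them, all but Pmaip1, passed the filter on low counts and were tested. Bid passed it through its wells with IFN-γ, where it was high. The cells were YUMM3.3, a mouse melanoma line that carries mutant Braf. In 6-well plates they were left untreated or were given IFN-γ (20 ng/ml), Activin-A (40 ng/ml) or both factors, and RNA was taken at 4 hrs and at 12 hrs, with 4 wells in each of the 8 groups. mRNA was measured by BRB-seq, which barcodes the cDNA of every sample before pooling and reads only the 3′ end of each transcript. Treatments are compared between wells for the same gene, and whether counts are comparable between genes was not tested. All wells share 1 line in culture, and the labels do not say that wells of a group came from separate experiments, so that p-values measure the spread between wells.

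In this family, pro-survival proteins sit on the outer mitochondrial membrane and hold the effectors in check, while BH3-only proteins, which carry a single region shared by the whole family, answer stress and receptor signals by occupying the pro-survival proteins or by activating the effectors. Once active, Bax and Bak1 oligomerize and permeabilize the membrane, cytochrome c is released and caspases are activated. In melanoma, pro-survival members are known for the resistance of the cells to death, and IFN-γ, which signals through a receptor coupled to Jak kinases, is known to change the transcription of cell death genes.

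Total counts ranged from 654539 to 1455074 per sample (median 988019.5), and 3 counts, taken as the floor of detection, were 1.98 to 4.59 CPM (counts scaled to a TMM-normalized total). Of the melanocyte markers 8 of 8 were in the table, and their summed level was between 323 and 463 CPM in every well. The highest on average were Pmel at 124 CPM and Tyrp1 at 91.3 CPM, and the lowest Mitf at 7.60 and S100b at 7.41 CPM. At its lowest, S100b was at 0.967 CPM, under the floor. Of 4 leukocyte markers 3 were in the table, with sums of 2.94 to 26.0 CPM over all wells. Lyz2 averaged 8.24 CPM (17 counts at most), Cd68 5.96 CPM (13 at most) and Ptprc 2.39 CPM (5 at most). Of the fibroblast markers, Col1a1 was at 39.1 and Pdgfra at 13.01 CPM on average, with sums of 34.96 to 75.2 CPM over all wells. At 12 hrs these sums were 45.4 to 46.1 CPM with IFN-γ and 34.96 to 43.96 CPM with both factors. Both ranges lay below the 51.0 to 64.5 CPM of untreated wells, while Activin-A wells spanned 44.6 to 74.5 CPM. At 4 hrs IFN-γ wells, at 35.3 to 61.2 CPM, overlapped untreated wells, at 37.3 to 52.7 CPM. The part of these markers in the changes at 12 hrs was not tested. Endothelial and epithelial markers were not analysed here. Replicate 1 of Activin-A at 4 hrs stood apart, since its pairs with wells of its group had a chi-square per gene of up to 2.89, and no pair without it, of 48 pairs in all, was above 1.54.

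Bak1 and Bid were the members whose mRNA rose with IFN-γ, at both times, and the pro-survival members did not pass the test in any of the 8 comparisons between treatments at the same time. At 4 hrs, 2 of the 9 tested members were called, both as higher with IFN-γ than in untreated cells (edgeR's quasi-likelihood test, adjusted p under 0.05 by Benjamini-Hochberg). Of all 9137 genes tested in that comparison, 5.06% were called in either direction and 4.29% as higher. At 12 hrs Bak1 and Bid were again the 2 members called as higher, against 9.25% of 8971 genes called and 6.43% called as higher. In cells given both factors, compared to Activin-A alone, 2 members were higher at 4 hrs (6.07% of all genes called, 4.41% as higher) and 1 at 12 hrs (9.62%, and 6.18% as higher). For Activin-A alone against untreated cells edgeR called 0 members at 4 hrs (1.64% of all genes called) and 0 at 12 hrs (2.41%), where 0 and 1 members had an unadjusted p under 0.05. Both factors against IFN-γ gave 0 members at 4 hrs (0.81% of all genes called) and 0 at 12 hrs (1.03%), with 0 and 1 at an unadjusted p under 0.05. DESeq2, which gave an adjusted p for 10 members in each of these comparisons at 4 hrs but for 7 (Activin-A) and 4 (both factors) at 12 hrs, called 0 of them. In bulk samples, a change in the share of cells that express a gene and a change in RNA per cell cannot be told apart.

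**Figure D1:**
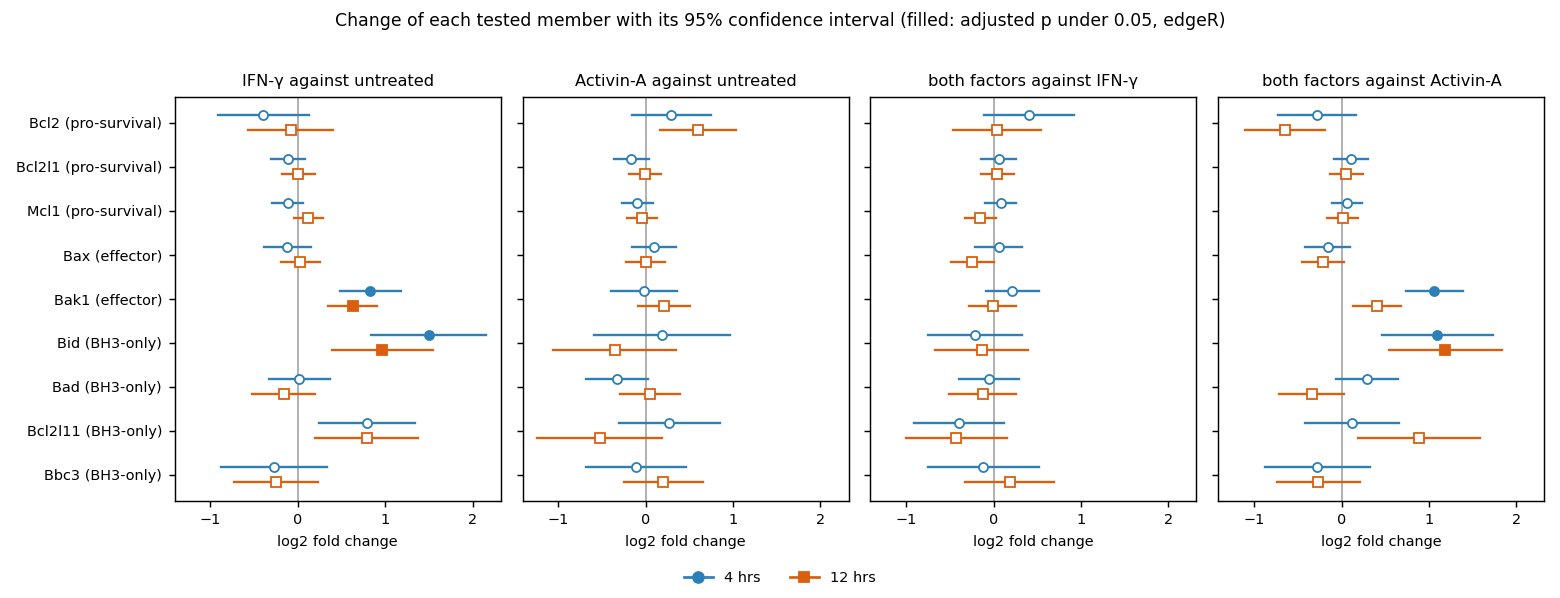
Log2 fold change (x axis) of the 9 tested members (y axis, with their role) in 4 comparisons, at 4 hrs (blue circles) and 12 hrs (orange squares). Lines are 95% confidence intervals, and filled symbols mark an adjusted p under 0.05 in edgeR's test. The filled symbols are those of Bak1 (0.83, 0.63 and 1.06) and Bid (1.496, 0.97, 1.10 and 1.19) in the comparisons that add IFN-γ, and the intervals of Bcl2l1 and Mcl1 are narrow around 0.

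Grouped by role, the medians of log2 fold change with IFN-γ at 4 hrs were -0.12 for the 3 pro-survival members, 0.36 for the 2 effectors and 0.40 for the 4 tested BH3-only members, beside -0.01 over all genes tested. At 12 hrs they were 0.01, 0.33 and 0.31, again beside -0.01 over all genes. Each of the latter 2 classes held a called member and members that were not: Bax stayed near 0 beside Bak1, and beside Bid, Bad and Bbc3 were near or under 0, while Bcl2l11 was at 0.79 at both times and did not pass. With Activin-A alone the class medians lay between -0.09 and 0.04 at 4 hrs and between -0.15 and 0.10 at 12 hrs.

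Among the pro-survival members, Bcl2l1, which encodes Bcl-xL, had group means between 131 CPM (Activin-A, 4 hrs) and 147 CPM (untreated, 4 hrs), a ratio of 1.12, beside 1.34 for Mcl1. Over the 8 comparisons its log2 fold changes lay between -0.16 and 0.11, the adjusted p-values from edgeR between 0.562 and 0.992, and the 95% confidence intervals stayed within folds of 0.780 and 1.24. Mcl1, a short-lived protein that binds BH3-only proteins and Bak1, had intervals within folds of 0.798 and 1.22 in the same comparisons.

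Mcl1 changed with time in culture. Untreated wells held 238, 236, 202 and 252 CPM at 4 hrs and 187, 164, 181 and 184 CPM at 12 hrs. All 4 wells at 12 hrs were below all 4 at 4 hrs, with means of 179 ± 10.2 and 232 ± 21.2 CPM (SD, 4 wells each). Its log2 fold change was -0.38 (SE 0.09, edgeR, adjusted p = 0.00194), and it was the 1 member of the 9 tested that passed, as lower, where 4.9% of 9332 genes were called and 2.57% as lower. With IFN-γ, Mcl1 stood at 213 ± 21.6 CPM at 4 hrs and 194 ± 11.9 at 12 hrs. The effect of IFN-γ on it differed between the times by 0.25 on the log2 scale (SE 0.12), which did not pass the adjustment over all genes (edgeR, adjusted p = 0.66). In that contrast edgeR called 0.579% of all genes and 0 members, of which 1, Mcl1, had an unadjusted p under 0.05. For the effect of Activin-A at 12 hrs minus that at 4 hrs it called 0.0214% of all genes and 0 members, with 0 members at an unadjusted p under 0.05. The time points differ in everything that changes in the cultures between them, and the parts of these in the fall were not tested.

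Bcl2, the founding pro-survival member, had its highest mean at 12 hrs with Activin-A alone, at 28.6 ± 4.65 CPM (SD, 4 wells). The mean with Activin-A alone at 4 hrs was level with it, at 28.3 ± 8.90 CPM. The Activin-A wells were at 25.7, 33.9, 23.8 and 30.97 CPM, the untreated wells at 23.2, 17.9, 13.2 and 18.7 CPM, and the wells with both factors at 14.7, 18.03, 18.8 and 21.0 CPM. The lowest of the Activin-A wells exceeded the highest well of each of the other 2 groups. Against untreated cells the log2 fold change was 0.60 (SE 0.22, 95% confidence interval 0.17 to 1.04), which did not pass the adjustment (edgeR, adjusted p = 0.154). Both factors against Activin-A gave -0.64 (SE 0.23, edgeR, adjusted p = 0.059). That value crossed the threshold with at least 10 counts required in every sample (0.042) and without replicate 3 of Activin-A (0.0464), and reached 0.246 under other alternatives. The interaction of the factors at 12 hrs was -0.56 (SE 0.34, edgeR, adjusted p = 0.834), so that a different response of Bcl2 to Activin-A with and without IFN-γ was not shown. At 4 hrs, Bcl2 with Activin-A alone spanned 19.4 to 40.3 CPM and overlapped the untreated wells, its highest value being that of the well that stood apart.

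Of the effectors, Bax was not called in any of the 8 comparisons. Its group means ran from 84.9 CPM (both factors, 12 hrs) to 107 CPM (Activin-A, 4 hrs), and the intervals of its changes stayed within folds of 0.716 and 1.27. The lowest unadjusted p, 0.0498, came from both factors against IFN-γ at 12 hrs, where wells were at 89.2, 93.5, 73.0 and 83.9 CPM and at 119, 99.3, 88.6 and 97.3 CPM. These wells overlapped, and the log2 fold change of -0.24 (SE 0.12) had an adjusted p of 0.485 in edgeR's test.

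**Figure D2:**
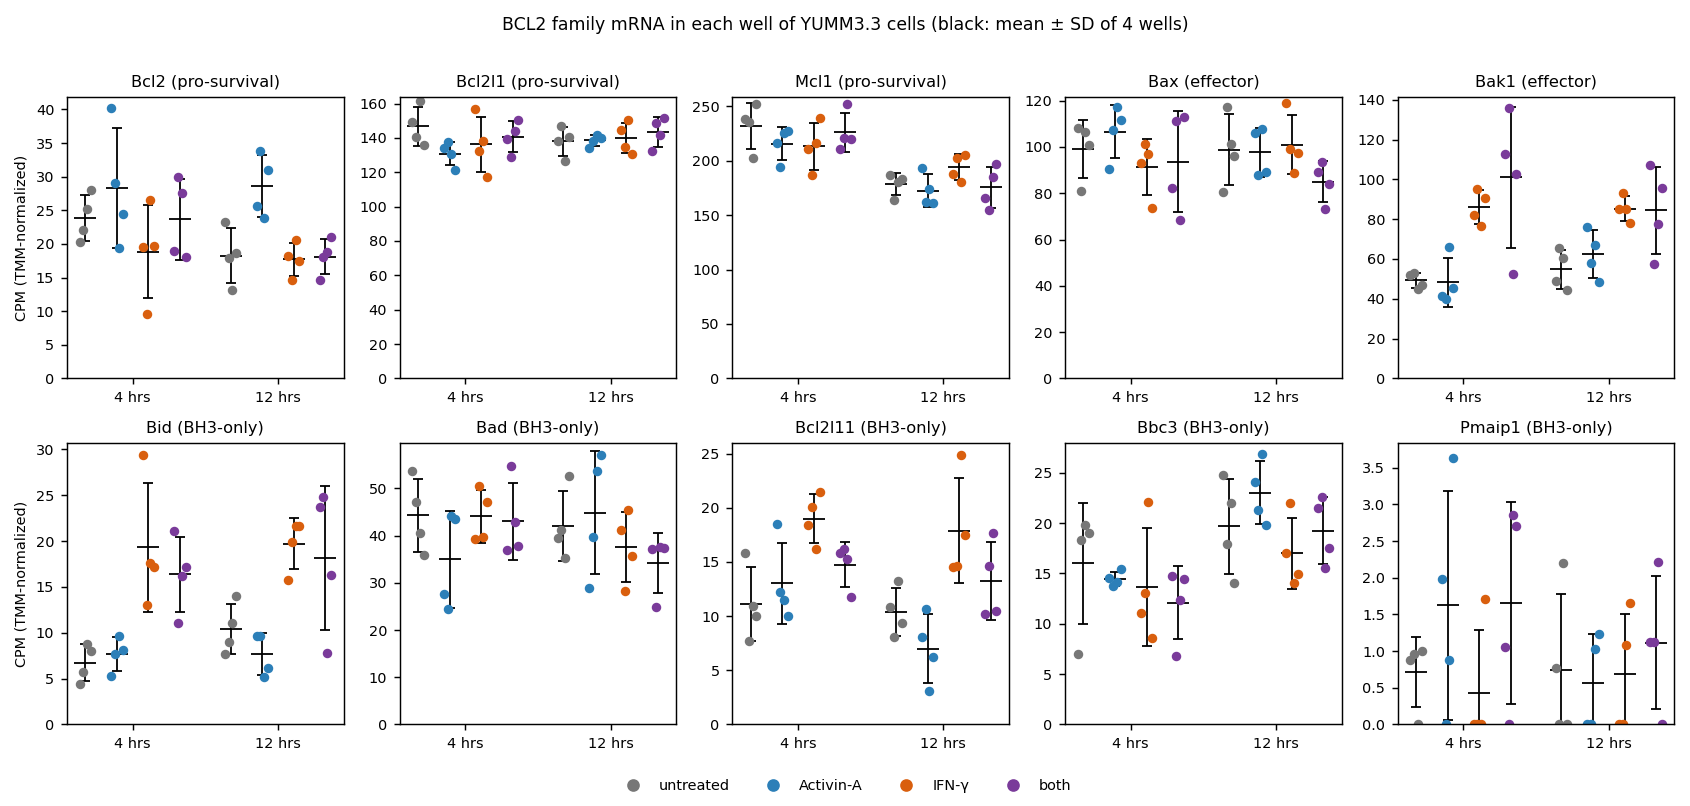
CPM in each of the 32 wells for the 10 members (1 panel each, y axes start at 0), by time and treatment, with black marks for the mean ± SD of 4 wells. Bak1 and Bid show IFN-γ wells above all untreated wells at both times, Mcl1 is lower at 12 hrs than at 4 hrs in untreated cells, and Pmaip1 lies at or near the floor of detection in all groups.

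Bak1, the effector that resides on the mitochondrial membrane, rose with IFN-γ at both times. At 4 hrs untreated wells held 51.9, 52.9, 45.0 and 47.0 CPM and IFN-γ wells 82.0, 95.03, 76.4 and 90.8 CPM, without overlap. The log2 fold change was 0.83 (SE 0.17, adjusted p = 0.000487 in edgeR's quasi-likelihood test), a fold of 1.78. At 12 hrs untreated wells held 48.7, 65.4, 60.5 and 44.4 CPM and IFN-γ wells 84.9, 93.0, 85.3 and 78.1 CPM, again without overlap. The log2 fold change was 0.63 (SE 0.14, edgeR, adjusted p = 0.00054), and the effect at 12 hrs minus that at 4 hrs was -0.19 (SE 0.24, edgeR, adjusted p = 0.928). Both IFN-γ calls held under every alternative that was run and without any single well. The highest adjusted p among these edgeR and DESeq2 fits was 0.0446 at 4 hrs and 0.0102 at 12 hrs.

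With both factors, Bak1 varied more between wells than with IFN-γ alone. At 4 hrs the wells with both factors were at 113, 136, 52.4 and 103 CPM, and those with Activin-A alone at 41.6, 39.8, 66.1 and 45.3 CPM. Replicate 3 of both factors, at 52.4 CPM, lay inside the range of Activin-A alone, and the other 3 wells were above it. In the same replicate 3, Irf1, a transcription factor that mediates the response to IFN-γ, was at 861 CPM, the highest of the 755 to 861 CPM in that group. Bak1's log2 fold change over Activin-A was 1.06 (SE 0.16, edgeR, adjusted p = 1.42e-06), and it passed in every alternative, with 0.97 without the Activin-A well that stood apart. At 12 hrs the wells were at 107, 57.5, 77.4 and 95.6 CPM with both and at 76.3, 58.0, 67.2 and 48.3 CPM with Activin-A. The groups overlapped, and the log2 fold change of 0.41 (SE 0.14) had an adjusted p of 0.0504 in edgeR's test, which was 0.0156 without replicate 1 of Activin-A, 0.00405 without replicate 2 of both factors and 0.342 without replicate 1 of both factors. It was 0.0327 in edgeR without a filter on low counts and 0.218 with DESeq2.

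Adding Activin-A to IFN-γ left Bak1 within the spread of the wells. Its log2 fold change was 0.21 (95% confidence interval -0.09 to 0.52, edgeR, adjusted p = 0.726) at 4 hrs and -0.01 (-0.28 to 0.26, adjusted p = 0.993) at 12 hrs. In fits that left out a well, the value at 4 hrs lay between 0.024 and 0.43. The sign at 12 hrs changed in such fits, from -0.15 to 0.13. The interaction terms were 0.23 (edgeR, adjusted p = 0.958) at 4 hrs and -0.22 (edgeR, adjusted p = 0.914) at 12 hrs. With a well left out they lay between 0.043 and 0.44 at 4 hrs and between -0.36 and -0.079 at 12 hrs. In the interaction, edgeR called 0% of 9137 genes at 4 hrs, with 505 at an unadjusted p under 0.05, and 0.0111% at 12 hrs, and 0 members at either time.

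Among the BH3-only members, Bid, which is cleaved by caspase-8 and so links death receptors to mitochondria, had the largest change with IFN-γ by log2 fold change of the 9 tested members. At 4 hrs untreated wells were at 4.40, 5.77, 8.78 and 7.99 CPM, from 5, 6, 8 and 8 counts, and IFN-γ wells at 29.4, 13.1, 17.6 and 17.1 CPM. All 4 IFN-γ wells were above all 4 untreated wells, with 1 IFN-γ well well above the others. The log2 fold change was 1.496 (SE 0.33, 95% confidence interval 0.84 to 2.15, edgeR, adjusted p = 0.000935), which passed in each of the 6 alternatives that tested it and in the 8 fits that left out a well. With Activin-A alone at 4 hrs Bid had 5 to 11 counts, so that its place among the tested genes rested on wells with IFN-γ. In fits of only untreated and Activin-A wells, Bid did not pass the filter at either time. At 12 hrs untreated wells were at 7.73, 8.96, 11.0 and 14.03 CPM and IFN-γ wells at 15.8, 19.9, 21.6 and 21.6 CPM, also without overlap. The log2 fold change was 0.97 (SE 0.29, edgeR, adjusted p = 0.0184), and the effect at 12 hrs minus that at 4 hrs was -0.51 (SE 0.45, edgeR, adjusted p = 0.882). The call at 12 hrs was lost with DESeq2 (adjusted p = 0.14) and in edgeR without untreated replicate 1 (0.107), untreated replicate 2 (0.0623), IFN-γ replicate 3 (0.0544) or IFN-γ replicate 4 (0.0727), while the log2 fold change stayed between 0.83 and 1.13.

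With both factors at 4 hrs, Bid was at 21.1, 11.1, 16.2 and 17.1 CPM, and with Activin-A alone at 5.28, 7.65, 9.69 and 8.16 CPM. The groups did not overlap, and the log2 fold change was 1.10 (SE 0.32, edgeR, adjusted p = 0.0206). The call was lost with DESeq2 (adjusted p = 0.114) and in edgeR without Activin-A replicate 1, the well that stood apart (log2 fold change 0.90, adjusted p 0.127), both factors replicate 1 (0.101) or both factors replicate 4 (0.0594). At 12 hrs the wells were at 23.7, 24.8, 7.74 and 16.3 CPM with both and at 9.64, 9.67, 5.17 and 6.19 CPM with Activin-A. Replicate 3 of both factors, at 7.74 CPM, lay among the Activin-A wells, and Irf1 in that replicate was at 656 CPM, the lowest of the group, whose other wells were at 710 to 738 CPM. The log2 fold change was 1.19 (SE 0.32, edgeR, adjusted p = 0.00682). Without both factors replicate 1 or replicate 2 its adjusted p in edgeR was 0.0544 and 0.068.

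Against IFN-γ alone, both factors gave log2 fold changes of Bid of -0.21 (95% confidence interval -0.75 to 0.32, edgeR, adjusted p = 0.888) at 4 hrs and -0.14 (-0.67 to 0.40, adjusted p = 0.931) at 12 hrs. Both signs changed in 1 of 8 fits that left out a well. In the GENCODE M21 annotation of GRCm38, exons of Bid on chromosome 6 share 628 bases with exons of Bcl2l13 on the other strand, and whether the counting used strand is not stated in the sources used here. Bcl2l13 had log2 fold changes of 0.17 and 0.20 with IFN-γ at 4 and 12 hrs (edgeR, adjusted p = 0.837 and 0.667), and of 0.62 and 0.61 with both factors over Activin-A (edgeR, adjusted p = 0.0862 and 0.0597). Exons of Bak1 share 614 bases with Ggnbp1, which had 0 to 2 counts in every well. Exons of Bad share 524 bases with Gpr137 on the other strand, which had 15 to 54 counts. Those of Bcl2 share 558 bases with D630008O14Rik on the other strand, and those of Bax 192 bases with Gm45808 on the same strand. D630008O14Rik and Gm45808 were not analysed here.

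The 250 bases before the start of Bak1 and Bid are shown because these genes rose with IFN-γ and carry none of the letters of its common response elements there. They come from RefSeq on GRCm38.p6, both genes lie on the minus strand, and sequences read 5′ to 3′ towards the start. Bak1 is chr17:27028628-27028877 and Bid is chr6:120916825-120917074. Capitals mark a match to a motif that was searched.
Bak1: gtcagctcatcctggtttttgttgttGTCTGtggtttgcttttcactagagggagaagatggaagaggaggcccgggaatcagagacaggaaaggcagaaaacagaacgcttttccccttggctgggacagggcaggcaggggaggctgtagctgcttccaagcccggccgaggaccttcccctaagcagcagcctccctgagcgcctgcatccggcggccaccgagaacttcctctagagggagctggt
Bid: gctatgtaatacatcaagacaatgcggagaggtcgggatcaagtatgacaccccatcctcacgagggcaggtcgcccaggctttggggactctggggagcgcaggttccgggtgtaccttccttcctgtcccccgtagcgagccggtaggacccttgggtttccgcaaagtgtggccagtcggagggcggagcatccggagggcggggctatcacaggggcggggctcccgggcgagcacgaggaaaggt
Searched on both strands were GAS (TTCNNNGAA), the IFN-γ-activated site, the core of ISRE, a response element bound by Irf factors, and the Smad-binding element (CAGAC), which is the motif of the factors that Activin-A activates. Of the 10 members, 9 had a promoter in the table, 15 windows in all, and 0 windows held GAS or ISRE letters. Over 32851 promoter windows of that length, 7.02% held GAS, 2.98% ISRE and 42.2% the Smad element. The capitals in Bak1, which begin 224 bases before its start, are the Smad element on the other strand. Bcl2l1 held 2 matches of it, Bcl2l11 1 and Bbc3 3. The windows of Bak1 and Bid had 58.4% and 63.6% G or C, beside a median of 52.4% over all windows. The absence of these letters says nothing about sites elsewhere or about binding.

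Bcl2l11, which encodes Bim, a BH3-only protein that binds all pro-survival members, was higher in every IFN-γ well than in every untreated well at both times but did not pass the adjusted test. At 4 hrs untreated wells were at 15.8, 7.70, 11.0 and 9.99 CPM and IFN-γ wells at 18.4, 20.1, 16.2 and 21.4 CPM. At 12 hrs they were at 10.8, 8.07, 13.2 and 9.35 CPM and at 14.6, 14.6, 24.8 and 17.5 CPM. Neither pair of groups overlapped, and the gaps between the nearest wells were small. The log2 fold changes were 0.79 (SE 0.27, edgeR, adjusted p = 0.0937) and 0.79 (SE 0.30, edgeR, adjusted p = 0.0863), with 95% confidence intervals of 0.24 to 1.34 and 0.20 to 1.38. Without untreated replicate 1 the value at 4 hrs passed (1.03, edgeR, adjusted p = 0.0363), and without untreated replicate 2 it was 0.64 (edgeR, adjusted p = 0.312). With DESeq2 the adjusted p-values were 0.421 at 4 hrs and 0.35 at 12 hrs, and at 12 hrs the value did not pass in any alternative. With Activin-A alone at 12 hrs, Bcl2l11 was at 8.03, 10.6, 3.10 and 6.19 CPM, the lowest group mean of the 8, and 1 of these wells was at the floor of 3 counts. Both factors against Activin-A at 12 hrs gave 0.89 (SE 0.35, edgeR, adjusted p = 0.109) with overlapping wells. Both factors against IFN-γ gave -0.39 (95% confidence interval -0.91 to 0.12) at 4 hrs and -0.43 (-1.005 to 0.15) at 12 hrs, and neither passed.

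Bad, a BH3-only protein controlled by growth factor kinases, had group means between 34.2 and 44.8 CPM, and Bbc3, the p53 target that encodes Puma, between 12.1 and 23.0 CPM. Neither was called in any of the 8 comparisons, and the intervals lay within folds of 0.610 and 1.57 for Bad and 0.544 and 1.62 for Bbc3. Pmaip1, the p53 target that encodes Noxa, had 0 to 4 counts, was at 0 in 13 wells and at or under 3 counts in 31 of the 32, so that no change in it could be measured.

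Over the 8 comparisons, 7 of the 72 member values that were tested passed, 3 of Bak1 and 4 of Bid, beside 4.48% of the 72432 values of all genes. Bid was among the tested members through its wells with IFN-γ. Wells did not overlap for 9 member values, and for 8.61% of the values of all genes (5.66% to 12.5% by comparison). The genes whose 8 group means of log2 CPM were most like those of the called members are given as a description, since group means share wells with the comparisons. For Bak1 they were Gnb4 (Pearson's r = 0.983), Ctdsp2 (0.978) and Stxbp5 (0.971), and for Bid Ankfy1 (0.988), Parp10 (0.984) and AA467197 (0.983), of 8627 genes ranked over 8 groups. Many genes come near these values: 186 had an r above 0.9 with Bak1 and 266 with Bid.

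Other genes of the apoptosis pathway were described from a list of 48, of which 45 were in the table, 38 were tested at 4 hrs and 37 at 12 hrs. With IFN-γ, 5 were called at 4 hrs and 4 at 12 hrs, all higher. These are 13.2% and 10.8% of the list's tested genes, beside 5.06% and 9.25% of all genes called, so that at 12 hrs the list was close to the background. Irf1, a mediator of the IFN-γ signal, is on that list and counts among them. The median log2 fold change of the list was -0.02 at 4 hrs and 0.06 at 12 hrs, beside -0.01 over all genes. Activin-A alone gave 1 gene, Bnip3, as lower at 4 hrs, and no gene of the list passed at 12 hrs or in both factors against IFN-γ, where the shares of all genes called were 1.64% and 2.41% for Activin-A and 0.81% and 1.03% for both factors, so that these counts are near the background. Both factors against Activin-A gave 5 at 4 hrs and 4 at 12 hrs, all as higher, which are the same shares of the list, 13.2% and 10.8%, beside 6.07% and 9.62% of all genes.

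Downstream of the mitochondria, Apaf1, Casp9 and Cycs, which form the apoptosome, were not called in any of the 8 comparisons. With IFN-γ at 4 hrs Apaf1 went from 30.7 ± 3.72 to 19.1 ± 4.98 CPM (SD, n = 4), with all IFN-γ wells below all untreated wells, and its log2 fold change of -0.66 did not pass (SE 0.22, edgeR, adjusted p = 0.0651). Casp9 was at -0.56 in the same comparison with overlapping wells (SE 0.26, edgeR, adjusted p = 0.325). For both factors against IFN-γ at 4 hrs, Apaf1 was at 0.57 and Casp9 at 0.72, each with all wells above, and neither passed (edgeR, adjusted p = 0.311 and 0.25). Both comparisons at 4 hrs share the same IFN-γ wells. At 12 hrs the untreated, IFN-γ and both-factor means were 24.2, 22.5 and 22.5 CPM for Apaf1. For Casp9 they were 19.2, 18.2 and 18.1 CPM. Cycs was at 0.36 with IFN-γ at 12 hrs, with all IFN-γ wells above all untreated wells (SE 0.13, edgeR, adjusted p = 0.0762). Of all genes tested, wells did not overlap for 9.39% with IFN-γ at 4 hrs and 12.5% at 12 hrs. For both factors against IFN-γ at 4 hrs that share was 5.99%.

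In the death receptor arm, which reaches the mitochondria through Bid, 3 of the 7 tested genes rose with IFN-γ at 4 hrs and 1 of 6 at 12 hrs, where 4.29% and 6.43% of all genes were called as higher. Tnfrsf1a, a receptor for tumor necrosis factor, rose from 74.0 ± 10.6 to 153 ± 9.96 CPM (SD, n = 4; log2 fold change 1.04, edgeR, adjusted p = 2.51e-11), and at 12 hrs by 0.90 (edgeR, adjusted p = 2.11e-10). Ripk1, the kinase of that receptor's complex, rose by 0.998 at 4 hrs (edgeR, adjusted p = 0.00178) and was at 0.35 at 12 hrs, which did not pass. Fas had 0 to 3 counts in untreated wells and 4 to 13 with IFN-γ at 4 hrs (edgeR, adjusted p = 0.00218), so that the size of its rise is poorly known. With Activin-A at 4 hrs it had 0 to 4 counts, and with both factors 10 to 12. Its place among the 7 tested genes thus rested on wells with IFN-γ, where it was high. At 12 hrs Fas had 0 to 1 counts in untreated wells and 3 to 17 with IFN-γ, but did not pass the filter on low counts and was not tested, which is why the arm had 6 tested genes at that time. Casp8, the protease that cleaves Bid, was not called in any of the 8 comparisons.

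**Figure D3:**
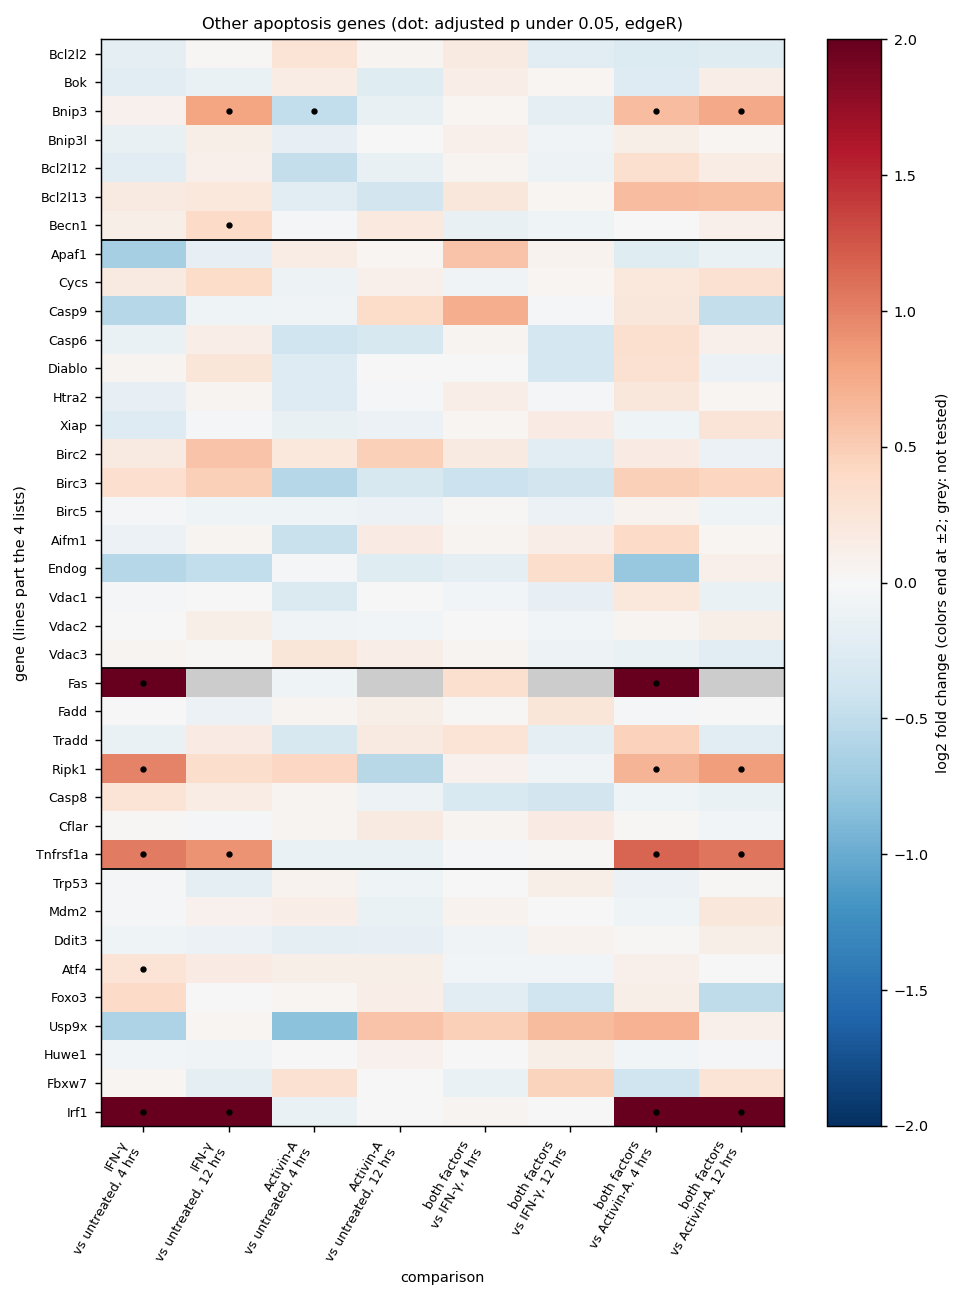
Log2 fold change (color, ending at ±2) of the other apoptosis genes that were tested (y axis; black lines part the other BCL2 family genes, downstream genes, death receptor arm and upstream regulators) in the 8 comparisons (x axis). Dots mark an adjusted p under 0.05 in edgeR's test, and grey cells were not tested. Tnfrsf1a and Irf1 carry dots in all 4 comparisons that add IFN-γ, and no gene carries one in both factors against IFN-γ.

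Of the other members of the wider BCL2 family on the list, Bnip3, a BH3-like protein of mitophagy, changed in several comparisons. In untreated cells it fell from 211 ± 22.8 CPM at 4 hrs to 128 ± 9.08 CPM at 12 hrs (SD, n = 4; log2 fold change -0.72, edgeR, adjusted p = 4.25e-08). With IFN-γ it stood at 225 ± 8.35 and 224 ± 21.8 CPM, so that it was 0.79 higher than untreated cells on the log2 scale at 12 hrs (edgeR, adjusted p = 1.94e-12). The effects of IFN-γ at the 2 times differed by 0.72 (SE 0.13, edgeR, adjusted p = 0.000412). At 4 hrs IFN-γ over untreated cells gave 0.09, which did not pass (edgeR, adjusted p = 0.777). With Activin-A alone at 4 hrs Bnip3 was lower, at 151 ± 24.8 CPM (log2 fold change -0.49, edgeR, adjusted p = 0.0018), and -0.39 without the well that stood apart (edgeR, adjusted p = 0.0181). Both factors over Activin-A gave Bnip3 as higher at both times. Over the 15 alternatives, each of which called it, the log2 fold change was 0.51 to 0.73 at 4 hrs and 0.71 to 0.82 at 12 hrs. Becn1, the autophagy gene whose protein binds Bcl2, rose by 0.39 with IFN-γ at 12 hrs (edgeR, adjusted p = 0.0208) with overlapping wells, and the call was lost with DESeq2 (0.134) and without 5 of the 8 wells in turn: untreated replicates 1 (0.058), 3 (0.0903) and 4 (0.0511), and IFN-γ replicates 3 (0.156) and 4 (0.0806). Among upstream regulators, Atf4, a stress transcription factor, rose by 0.27 with IFN-γ at 4 hrs (edgeR, adjusted p = 0.00884, and 0.0552 without IFN-γ replicate 4). At 12 hrs Atf4 was at 695 ± 47.5 CPM with IFN-γ and 622 ± 40.4 CPM untreated (SD, n = 4), and did not pass. In untreated cells it rose with time, from 373 ± 13.2 CPM at 4 hrs. That rise was called in all 13 alternatives, with log2 fold changes of 0.706 to 0.773. Trp53, Mdm2, Ddit3 and Foxo3 were not called.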

How the data were processed

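BRB-seq of YUMM3.3 cells gave 32 samples, 4 wells per treatment and time. The values the authors deposited are raw counts of reads per gene. The submitters' processing notes name STAR 2.7.10b, featureCounts, GRCm39 (mm39) and DESeq2 1.36.0, while strand setting and handling of molecular identifiers are not given in the sources used here. Symbols came from GENCODE M21 on GRCm38 (12437 of 12451 identifiers matched), so that exon overlaps are from another build than the counting. Promoters are RefSeq's on GRCm38.p6.

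Samples were grouped by label. The Activin-A dose given is that of the labels, and legends in the study state another. Genes were filtered with filterByExpr, TMM was used for normalization, and the test was edgeR's (version 4.0.16, glmQLFit and glmQLFTest, R 4.3.3), fitted to the 16 samples of each time or to all 32 for contrasts of time, with Benjamini-Hochberg adjustment over all genes and calls at an adjusted p under 0.05. Fold changes come from these fits, and CPM are of TMM totals over all 32 samples. Log2 CPM used a prior count of 2. The floor of 3 counts and the intervals, at 95%, cover counting error and spread between these wells only.

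The members and lists were chosen with earlier results of these data known. All 10 members were to be named, pathway genes with an adjusted p under 0.05 in a comparison of treatments, and the 3 genes most like each called member among genes with at least 10 counts on average. Apaf1, Casp9, Cycs, Casp8, Trp53, Mdm2, Ddit3 and Foxo3 were named after their values were seen.

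Alternatives were DESeq2 1.42.0, RLE normalization, a minimum of 10 counts in each sample or no filter, a replicate block, all 32 or only the 8 compared samples in a fit, and each well left out in turn. On simulated data for IFN-γ against untreated cells at 12 hrs, edgeR recovered 196 of 200 genes changed 2-fold among 8831, with 13 false calls, and called 0 where nothing was changed. The changed genes were drawn only from genes above a cut on mean CPM. Bid and Bcl2l11 lie under that cut, so that recovery at their level was not simulated. Pathway genes Bcl2l10, Hrk and Bcl2l15 were not analysed here. The pathway list does not hold every gene of the pathway, and those left off it are not reported here.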

Additional observations from a re-analysis of the deposited data

Results flagged for a closer look

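In 80 groups of 4 wells (10 members in 8 groups), 4 wells lay farther from the others of their group than Dixon's 95% limit, as chance gives in about 1 of 20 groups. Bad in replicate 2 of both factors at 12 hrs was at 24.8 CPM, below the other wells at 37.3 to 37.6 CPM. Bbc3 in untreated replicate 1 at 4 hrs was at 7.03 CPM, below the others at 18.3 to 19.8 CPM. Pmaip1 was at 0 CPM in untreated replicate 3 at 4 hrs, where the others were at 0.879 to 0.999 CPM, and at 1.71 CPM in replicate 4 of IFN-γ at 4 hrs, where the others were at 0. The Pmaip1 values are counts at or under the floor of detection.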

How the results depend on the processing

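Bak1 kept both calls for IFN-γ and its call for both factors over Activin-A at 4 hrs under every alternative and without any single well, and Mcl1 kept its call over time. Of 219 counts of called members under alternatives, 200 were the same as the original count. In 2 of these the call was of another member: both factors over Activin-A at 12 hrs gave Bcl2 in place of Bid with at least 10 counts in every sample, where Bid was not tested, and Bak1 in place of Bid without both factors replicate 2. At least 10 counts in every sample left Bid untested, so that IFN-γ gave 1 member at 4 hrs and 1 at 12 hrs, and both factors over Activin-A 1 at 4 hrs. DESeq2 gave 1 member for IFN-γ at 12 hrs and 1 for both factors over Activin-A at 4 hrs. Both factors over Activin-A at 12 hrs gave 2 members without a filter and 2 with the replicate block, Bid and Bak1 (adjusted p of Bak1 0.0327 and 0.0417 in edgeR), and 0 with only the 8 samples in the fit, where Bid did not pass the filter. With each well left out, the members called were 2 to 3 for IFN-γ at 4 hrs, 1 to 2 at 12 hrs, 1 to 2 for both factors over Activin-A at 4 hrs and 0 to 2 at 12 hrs. Apart from the untested Bid, the cause was not tested. Of the named pathway calls, those lost in some alternative are given with their values in the report, and both calls of Ripk1 for both factors over Activin-A were lost with DESeq2 and in edgeR without single wells, with adjusted p-values up to 0.154 at 4 hrs and 0.265 at 12 hrs.

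Signs changed for values near 0: Bak1 with Activin-A at 4 hrs was -0.02, 0.013 with the replicate block and -0.21 to 0.075 with a well left out. With wells left out, both factors against IFN-γ gave -0.39 to 0.043 for Bid at 4 hrs, and at 12 hrs -0.15 to 0.13 for Bak1 and -0.33 to 0.12 for Bid. Of 65 uncalled member values, 22 changed sign in at least 1 alternative and 3 became called. The replicate numbers do not pair the wells (mean r of deviations -0.000229 over 48 same-numbered pairs, and 5 of 32 wells correlated best with their own number), and the block gave no other change of a member's call.

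Over all genes, DESeq2 called 84 for Activin-A at 4 hrs (edgeR 150) and 136 at 12 hrs (216), 44 for both factors against IFN-γ at 4 hrs (74) and 61 at 12 hrs (92), 549 for both factors against Activin-A at 12 hrs (863), 284 for untreated cells over time (457), 1 for the Activin-A effect over time (2) and 0 for the interaction at 12 hrs (1). The interaction at 12 hrs had 8 without a filter, and that at 4 hrs 1 without a filter and 1 with all 32 samples (0). Only the 8 samples gave 120 for both factors against IFN-γ at 4 hrs (74), and that count was 49 without IFN-γ replicate 1, 47 without IFN-γ replicate 2 and 47 without both factors replicate 4. Untreated cells over time gave 302 without untreated replicate 1 at 12 hrs (457), and the IFN-γ effect over time 35 without untreated replicate 4 at 4 hrs (54). With a well left out, the counts near 0 lay between 0 and 1 for the interaction at 4 hrs, 0 and 6 for that at 12 hrs, and 0 and 3 for the Activin-A effect over time, and in the other 7 comparisons they stayed within 1.5 times.

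Over the 8 comparisons of treatments, standard errors of log2 fold changes reached 0.388 for Bid (5 to 26 counts per well), 0.36 for Bcl2l11 (3 to 28) and 0.318 for Bbc3, and Pmaip1 could not be measured at this depth.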
